A study of Homo sapiens with 4 samples.

Results

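The genes described here encode the ligands, receptors, secreted antagonists and core intracellular components of the WNT pathway. They were chosen by symbol alone from the platform annotation: all WNT, FZD, DKK1 to DKK4, SFRP, AXIN, DVL and TCF7-type genes, with LRP5, LRP6, LEF1, CTNNB1, APC, WIF1, RNF43 and ZNRF3, each represented by its brightest probe set. The rule found 52 genes on 53 probe sets, of 18417 genes measured in all. TCF7 was not analysed here. The induced group was H1299 cells with a stable tet-on construct for mouse wild-type p53, treated with doxycycline, which turns the construct on, at 0.5 µg/mL for 24 hours. H1299 is a line from a human non-small cell lung cancer and has no p53 of its own. The uninduced group was the same stable line before induction. Both were grown in DMEM with tet-free serum. Each group had 2 arrays, which the labels call technical replicates, so the p-values measure the spread between arrays and not between cultures, and so few arrays limit the precision. None of the 4 arrays held doxycycline-treated cells without the construct, so effects of the drug and of p53 cannot be told apart.

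WNT proteins are secreted, lipid-modified ligands that bind frizzled receptors (FZD genes) together with the co-receptors LRP5 or LRP6. In the canonical branch this recruits dishevelled (DVL genes) and stalls the destruction complex built on AXIN and APC, so that beta-catenin (CTNNB1) escapes degradation and acts in the nucleus with TCF and LEF factors. DKK and SFRP proteins and WIF1 block the pathway outside the cell, and the ubiquitin ligases RNF43 and ZNRF3 remove frizzled receptors from the cell surface. In lung, WNT signals shape the developing epithelium and the upkeep of alveolar stem cells.

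Induction was visible on both induced arrays. CDKN1A, the p21 inhibitor of cyclin-dependent kinases, read 12.63 and 12.50 log2 units on the induced arrays, against 9.16 and 9.11 on the uninduced arrays. MDM2, the ubiquitin ligase that degrades p53, read 12.70 and 12.76 on induced arrays and 9.84 and 9.85 on uninduced ones. Of 7 markers of the line, the mesenchymal gene VIM read 12.35 and 12.29 on induced arrays against 12.69 and 12.75 on uninduced arrays. KRT8 was called higher (2.21-fold), VIM and CDH2 were called lower (log2 fold changes -0.40 and -0.345), and KRT18, ZEB1, CDH1 and EPCAM did not pass. The calls of VIM and CDH2 ended without either uninduced array, and that of CDH2 also without induced array 1. The epithelial adhesion genes CDH1 and EPCAM were dim in both groups, with group means of 5.88 and 5.50 induced against 5.885 and 5.445 uninduced. Of 17 markers of blood, endothelial, fibroblast and differentiated lung cells, 3 were called higher on induced arrays (CD3E, SFTPC and SCGB1A1) and 0 lower. CD68, which was not called, was bright in both groups, with means of 11.92 induced and 11.74 uninduced. SCGB1A1 read 8.53 on both induced arrays against 6.59 and 6.41 on uninduced arrays, 4.08-fold higher. The calls of CD3E and SFTPC ended whichever array was left out. Summed over the 17 markers, log2 levels were 110.74 and 108.87 on the induced arrays and 106.97 and 105.78 on the uninduced arrays. The part of these markers in the results below was not tested. The median of these markers, 6.30 induced and 6.24 uninduced, is used below to point out dim genes.

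Of the 52 WNT genes, 22 (42.3%) differed between induced and uninduced arrays in limma's test at an adjusted p under 0.05, against 45.1% of all genes tested. Of these, 11 were higher and 11 lower after induction, where 20.6% of all genes were higher and 24.6% lower. A call with at least a 2-fold change was reached by 3 genes that rose (SFRP4, DKK1 and FZD6) and 2 that fell (FZD7 and FZD3), against 6.48% and 6.77% of all genes. As a set the WNT genes thus changed about as often as any gene, with a median absolute log2 fold change of 0.22 against 0.23 over all genes. The roles differed in their counts: 9 of 12 receptor and co-receptor genes were called, 4 of 9 secreted antagonists, and 3 of 19 ligands. These differences between roles were described, not tested and not matched for level. In the fit without genes under the 40th percentile of mean level, 68.0% of all genes kept were called. The arrays measure bulk RNA, so a change in every cell and a change in the share of cells that express a gene cannot be told apart.

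**Figure D1:**
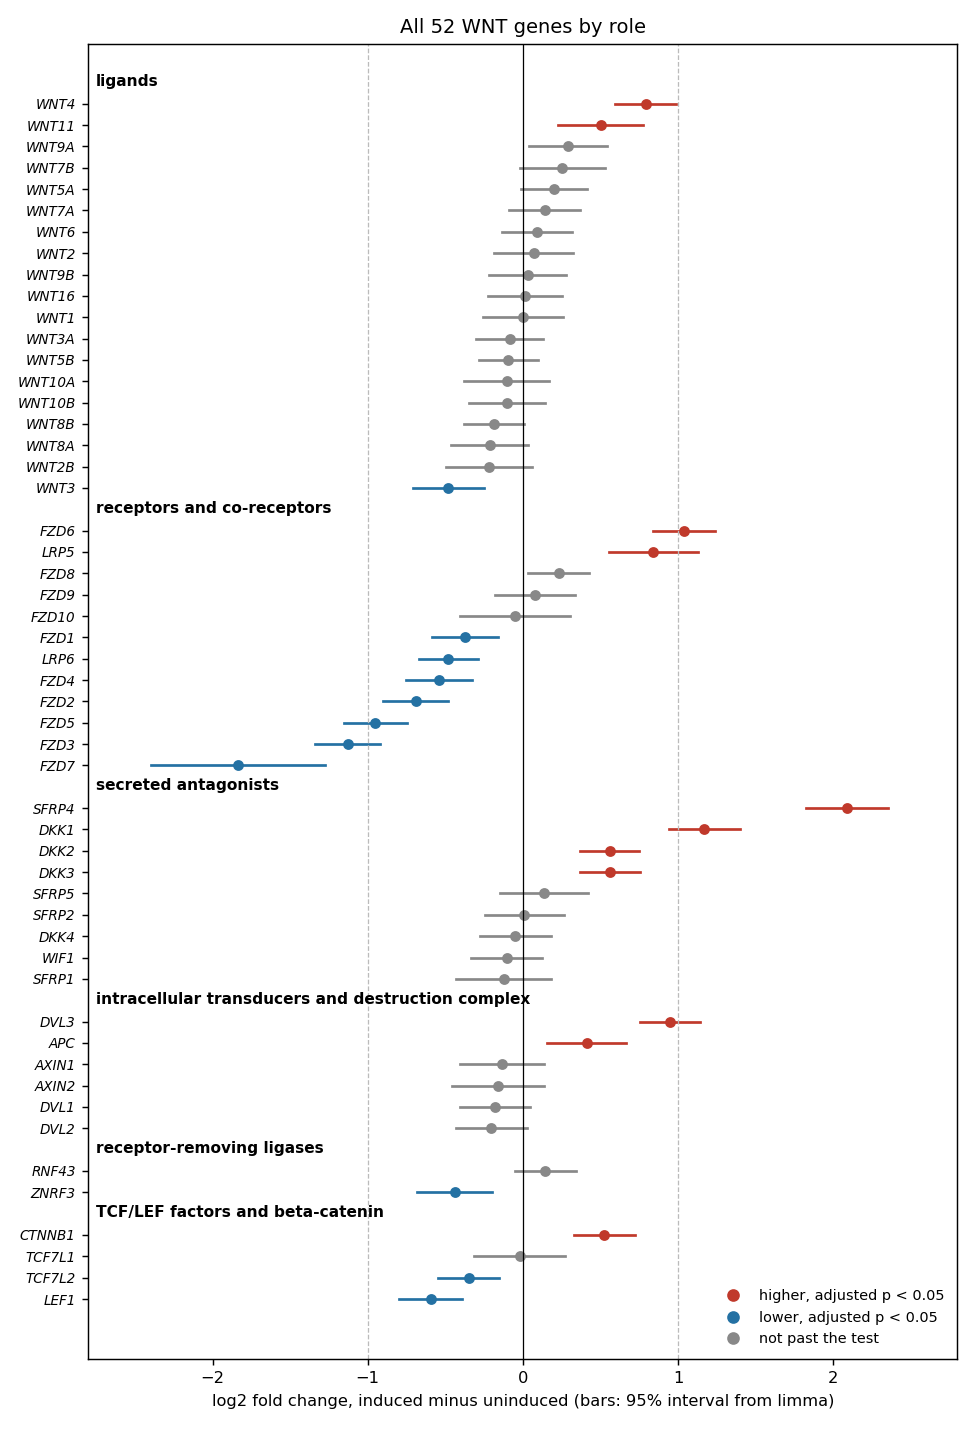
Log2 fold change (induced minus uninduced) of all 52 WNT genes, ordered by role, with 95% intervals from limma (n = 2 arrays each). Frizzled genes lie mostly left of 0, the 4 called antagonists lie right of 0, and most ligands lie near 0; dashed lines mark a 2-fold change.

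Most frizzled receptor genes fell. Of 10 measured, 6 were called lower (FZD1, FZD2, FZD3, FZD4, FZD5 and FZD7), 1 was called higher (FZD6) and 3 did not pass the test, with a median log2 fold change of -0.46. Over all genes, 24.6% were called lower. FZD7, a receptor of canonical WNT signalling in stem and tumour cells, read 7.11 and 6.26 on the induced arrays, against 8.53 and 8.51 on the uninduced arrays. Both induced arrays lay below both uninduced arrays, but they differed from each other far more than the uninduced pair did. FZD7 was 3.57-fold lower (log2 fold change -1.835, SE 0.24, adjusted p = 0.000473), and the value was -1.41 without induced array 2 and -2.26 without induced array 1. FZD3, best known from axon guidance and planar cell polarity, read 6.77 and 6.74 on induced arrays and 7.82 and 7.95 on uninduced arrays, a 2.19-fold lower level (SE 0.088 on the log2 scale, adjusted p = 3.4e-05). The arrays of each group lay close together and the groups were well apart.

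FZD5, which transmits canonical WNT signals in the eye and the intestine, read 6.89 and 6.99 on induced arrays against 7.92 and 7.86 on uninduced arrays, and was 1.93-fold lower (adjusted p = 7.5e-05). FZD2, a receptor of WNT5A-type signals, read 7.78 and 7.67 on induced arrays against 8.37 and 8.46 on uninduced arrays, and was 1.61-fold lower (adjusted p = 0.000456). In both genes the groups stood apart by several times the gap between arrays of a group. FZD4, the receptor of norrin in retinal vessels, read 6.86 and 6.70 on induced arrays and 7.31 and 7.33 on uninduced arrays, 1.45-fold lower (SE 0.091 on the log2 scale, adjusted p = 0.00188). FZD1 had the smallest called fall of the family, with 8.04 and 7.88 on induced arrays, 8.34 and 8.33 on uninduced arrays and a level 1.30-fold lower (SE 0.091 on the log2 scale, adjusted p = 0.0113). The calls of FZD1, FZD4 and FZD7 ended without either uninduced array. Such a fit takes each gene's own spread from the induced pair alone, which for FZD7 lay far apart. Under the alternatives tried, log2 fold changes ran from -0.455 to -0.29 for FZD1, -0.62 to -0.46 for FZD4 and -2.26 to -1.41 for FZD7.

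FZD6 went the other way. This receptor, which works in planar cell polarity and can restrain canonical signalling, read 10.30 and 10.39 on induced arrays against 9.28 and 9.33 on uninduced arrays, and rose 2.06-fold (log2 fold change 1.04, SE 0.085, adjusted p = 4.4e-05). No induced value came near an uninduced one. Of the frizzled genes that did not pass the test, FZD8 had a log2 fold change of 0.23 (95% interval 0.035 to 0.43, adjusted p = 0.0584), FZD9 one of 0.080 (-0.18 to 0.34) and FZD10 one of -0.050 (-0.40 to 0.30). FZD8 was called under 4 of the alternatives, those that rescaled the arrays, left out dim genes or used an intensity trend.

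The LRP co-receptors moved in opposite directions. LRP5 read 8.72 and 8.90 on induced arrays against 8.12 and 7.82 on uninduced arrays and rose 1.79-fold (log2 fold change 0.84, SE 0.12, adjusted p = 0.000876). LRP6 read 9.41 and 9.38 on induced arrays against 9.89 and 9.86 on uninduced arrays and was 1.39-fold lower (log2 fold change -0.48, SE 0.081, adjusted p = 0.00192). In both the groups did not overlap, as in 34 of the 52 WNT genes and in 66.8% of all genes tested. LRP5 lost its call without induced array 2 and LRP6 without uninduced array 1.

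**Figure D2:**
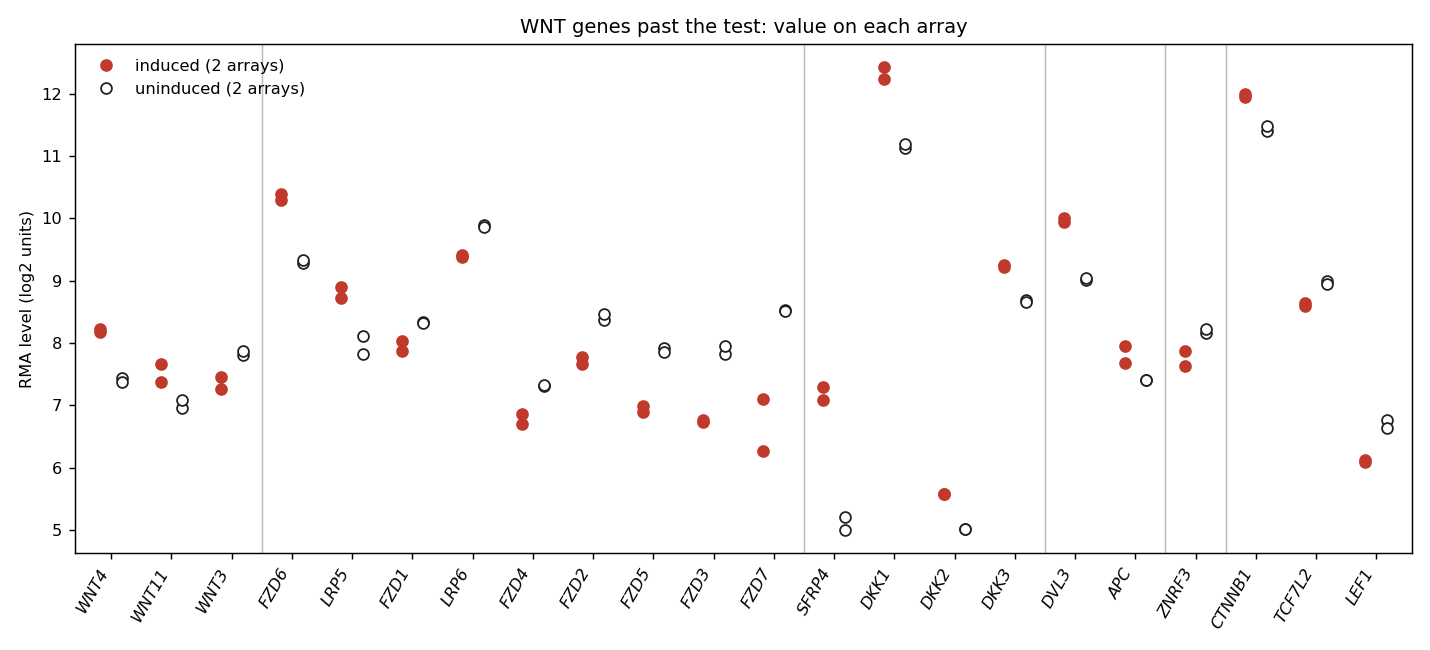
RMA level (log2 units) on each of the 4 arrays for the 22 WNT genes past the test, with induced arrays as filled points to the left of the uninduced arrays as open points; vertical lines separate the roles. The 2 induced values of FZD7 (7.11 and 6.26) lie far apart, while those of DKK2 and FZD3 nearly coincide.

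Among secreted antagonists, 4 of 9 rose and 0 fell, 44.4% called against 45.1% of all genes, where 20.6% of all genes were called higher. SFRP4, a decoy that binds WNT ligands through a frizzled-like domain, read 7.08 and 7.30 on induced arrays against 5.20 and 5.0 on uninduced arrays. It rose 4.26-fold (log2 fold change 2.09, SE 0.11, adjusted p = 5.9e-06), the largest rise of the 52 genes. Its uninduced level lay under the median of the 17 markers, so its fold depends on the background of the array. DKK1, which blocks LRP5 and LRP6 and is itself a canonical target gene, was bright in both groups, at 12.24 and 12.43 on induced arrays and 11.13 and 11.20 on uninduced arrays. It rose 2.25-fold (log2 fold change 1.17, SE 0.097, adjusted p = 4.6e-05).

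The relatives of DKK1 rose less. DKK3, a divergent member whose action on WNT signals is less clear, read 9.25 and 9.22 on induced arrays against 8.69 and 8.66 on uninduced arrays, 1.47-fold higher (SE 0.081 on the log2 scale, adjusted p = 0.000861). DKK2, which can activate or block LRP6 depending on the cell, read 5.57 on both induced arrays and 5.01 on both uninduced arrays (log2 fold change 0.56, SE 0.081, adjusted p = 0.000819). Both DKK2 levels lay under the marker medians, and equal readings of a pair of arrays do not show that its error is 0. SFRP4 and DKK2, like FZD4 and LEF1, were not in the fit that left out dim genes. The antagonists that did not pass the test were DKK4, SFRP1, SFRP2, SFRP5 and WIF1, with log2 fold changes between -0.125 and 0.135 and 95% intervals within -0.43 and 0.42. Of these, SFRP2, DKK4 and WIF1 lay under the marker medians in both groups.

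The 250 bases before the RefSeq start (GRCh38.p14) are shown for both antagonists with at least a 2-fold rise and for a pair of the frizzled genes that fell, to set the letters of genes that moved in opposite directions side by side. Capitals mark GC boxes (GGGCGG) and CCAAT boxes (CCAAT), read on both strands; GC boxes can overlap each other, and none overlapped a CCAAT box.
SFRP4, chr7:37916818-37917067, minus strand: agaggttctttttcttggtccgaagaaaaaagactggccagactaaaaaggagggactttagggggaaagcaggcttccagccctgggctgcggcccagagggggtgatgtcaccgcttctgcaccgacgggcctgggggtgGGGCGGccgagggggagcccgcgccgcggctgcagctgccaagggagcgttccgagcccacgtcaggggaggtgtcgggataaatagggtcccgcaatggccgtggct
DKK1, chr10:52314031-52314280, plus strand: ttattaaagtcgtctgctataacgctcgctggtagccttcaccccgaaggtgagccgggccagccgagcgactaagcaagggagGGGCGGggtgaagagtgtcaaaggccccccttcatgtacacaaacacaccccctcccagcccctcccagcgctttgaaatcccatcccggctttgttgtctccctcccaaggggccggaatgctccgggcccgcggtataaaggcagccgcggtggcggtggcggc
FZD5, chr2:207769907-207770156, minus strand: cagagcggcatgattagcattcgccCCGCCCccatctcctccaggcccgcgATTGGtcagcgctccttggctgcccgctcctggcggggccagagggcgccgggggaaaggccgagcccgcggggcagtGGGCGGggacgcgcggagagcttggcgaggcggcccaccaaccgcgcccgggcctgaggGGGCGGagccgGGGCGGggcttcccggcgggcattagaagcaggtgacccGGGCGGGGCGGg
FZD4, chr11:86955396-86955645, minus strand: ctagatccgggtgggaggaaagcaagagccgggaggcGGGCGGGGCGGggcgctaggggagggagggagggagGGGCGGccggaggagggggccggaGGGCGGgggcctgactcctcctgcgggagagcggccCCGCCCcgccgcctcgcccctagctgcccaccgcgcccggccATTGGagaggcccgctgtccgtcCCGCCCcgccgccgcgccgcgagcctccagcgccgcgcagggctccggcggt

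RefSeq promoters were matched for 37 of the 52 genes; AXIN2, DKK2, DKK3, DKK4, FZD2, FZD3, FZD6, FZD7, FZD10, LRP6, SFRP1, WNT7B, WNT10B, WNT11 and ZNRF3 had no entry. The GC box occurred in 31 of the 37 windows (83.8%), against 42.6% of all 35116 promoters and 53.7% of those of coding genes. The CCAAT box occurred in 13 of 37 (35.1%), near the 32.0% of all promoters and the 32.7% of those of coding genes. Only the spelling CTTTGAT of the TCF/LEF core was searched, and it was in 0 of 37 windows and in 2.26% of all promoters. Other spellings were not searched, so this 0 does not show that the windows lack a TCF/LEF core. The DKK1 window above, for example, holds ctttgaa and ctttgtt. The p53 half-site was searched only as RRRCWWGYYY (R is A or G, W is A or T, Y is C or T). It was in 0 of 37 windows and in 5.57% of all promoters. Sites with mismatches or outside these windows were not searched, so this 0 does not show that the genes lack p53 sites. A match or its absence in these windows describes letters only.

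WNT ligand genes changed little. Of 19 measured, 2 rose and 1 fell, while 16 missed the threshold, 15.8% called against 45.1% of all genes. No ligand read above 8.32 on any array, and these shares were not matched for level. WNT4, which acts in kidney and reproductive tract development, read 8.17 and 8.23 on induced arrays against 7.44 and 7.38 on uninduced arrays. It rose 1.73-fold (log2 fold change 0.79, SE 0.084, adjusted p = 0.000162), with the arrays of each group close together. WNT11, a ligand of the non-canonical branch, read 7.66 and 7.37 on induced arrays against 6.95 and 7.08 on uninduced arrays, 1.41-fold higher (SE 0.12 on the log2 scale, adjusted p = 0.00925). WNT3, a canonical ligand, read 7.46 and 7.27 on induced arrays against 7.81 and 7.88 on uninduced arrays, 1.39-fold lower (SE 0.097 on the log2 scale, adjusted p = 0.00462). The calls of WNT11 and WNT3 ended without either uninduced array. That of WNT11 also ended without induced array 1 and with the replicate number as a block.

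The 16 uncalled ligands had log2 fold changes between -0.22 (WNT2B) and 0.29 (WNT9A). Their 95% intervals together ran between -0.50 and 0.54, so a change of 2-fold lay outside each of them. WNT5B, a ligand mostly tied to the non-canonical branch, read 8.15 and 8.17 on induced arrays against 8.26 and 8.25 on uninduced arrays, or -0.095 on the log2 scale (SE 0.081, adjusted p = 0.409). WNT1, the founding member of the family, read 8.20 and 7.92 on induced arrays against 8.09 and 8.03 on uninduced arrays, and the induced pair enclosed the uninduced pair. WNT5A, often studied in lung tumours, read 5.48 and 5.46 on induced arrays against 5.35 and 5.19 on uninduced arrays (adjusted p = 0.122), and WNT5A and WNT2 lay under the marker medians in both groups. The other ligands that did not pass were WNT2B, WNT3A, WNT6, WNT7A, WNT7B, WNT8A, WNT8B, WNT9A, WNT9B, WNT10A, WNT10B and WNT16. WNT9A was called when the arrays were rescaled, when dim genes were left out, with an intensity trend and with the replicate number as a block.

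**Figure D3:**
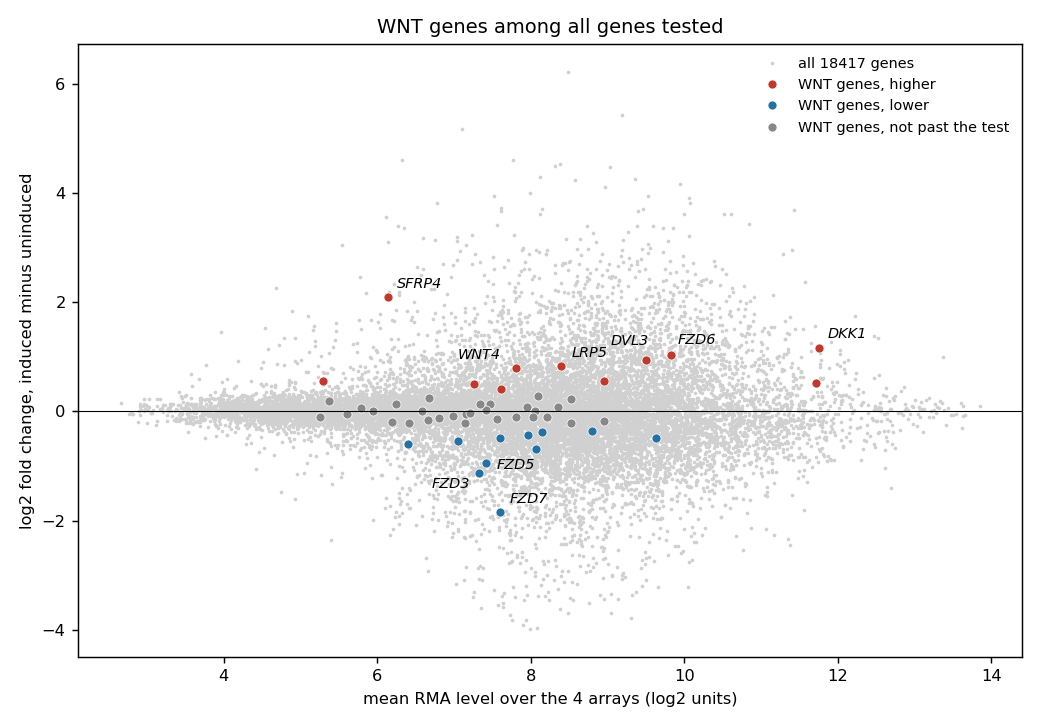
Log2 fold change (induced minus uninduced) against the mean RMA level over the 4 arrays for all genes tested (grey) and the 52 WNT genes (coloured by call); labels name WNT genes whose log2 fold change is 0.75 or more in either direction. The WNT genes lie within the cloud of all genes, with SFRP4 (2.09) and FZD7 (-1.835) at their extremes.

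Inside the cell, DVL3 stood out among the dishevelled genes, which relay the signal from frizzled receptors. It read 9.95 and 10.01 on induced arrays against 9.02 and 9.04 on uninduced arrays and rose 1.93-fold (log2 fold change 0.95, SE 0.082, adjusted p = 5.9e-05). DVL1 and DVL2 had log2 fold changes of -0.18 (95% interval -0.41 to 0.046) and -0.205 (-0.43 to 0.024), and neither passed the test. For the scaffolds of the destruction complex, APC read 7.68 and 7.95 on induced arrays against 7.40 and 7.41 on uninduced arrays, 1.33-fold higher (SE 0.11 on the log2 scale, adjusted p = 0.0161). The APC call was the least stable of the 22, since it ended under 5 of 11 alternatives, among them leaving out induced array 2 or either uninduced array. AXIN1 had a log2 fold change of -0.135 (95% interval -0.41 to 0.14, adjusted p = 0.409). AXIN2, a feedback inhibitor and widely used readout of canonical signalling, read 6.74 and 6.41 on induced arrays against 6.82 and 6.65 on uninduced arrays. The groups overlapped, and its log2 fold change was -0.16 (95% interval -0.46 to 0.14, adjusted p = 0.373). Of the receptor-removing ligases, ZNRF3 read 7.63 and 7.87 on induced arrays against 8.16 and 8.22 on uninduced arrays, 1.36-fold lower (SE 0.10 on the log2 scale, adjusted p = 0.00987). Its call ended without either uninduced array or without induced array 1. RNF43 had a log2 fold change of 0.145 (95% interval -0.051 to 0.34, adjusted p = 0.215).

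Beta-catenin and its DNA-binding partners did not move together. CTNNB1 read 11.95 and 12.00 on induced arrays against 11.41 and 11.49 on uninduced arrays and rose 1.44-fold (log2 fold change 0.525, SE 0.084, adjusted p = 0.00145). Beta-catenin is controlled mainly through the stability of its protein, which the arrays do not measure. LEF1, a factor that is also a canonical target gene, read 6.09 and 6.12 on induced arrays against 6.76 and 6.64 on uninduced arrays, 1.51-fold lower (SE 0.087 on the log2 scale, adjusted p = 0.000887). TCF7L2, the TCF4 factor of intestinal crypts, read 8.60 and 8.65 on induced arrays against 9.0 and 8.95 on uninduced arrays, 1.27-fold lower (SE 0.083 on the log2 scale, adjusted p = 0.0100). In each of these genes the groups did not overlap, and the induced level of LEF1 lay under the marker median. TCF7L1, mostly a repressor, had a log2 fold change of -0.020 (95% interval -0.31 to 0.27, adjusted p = 0.921). The calls of CTNNB1 and TCF7L2 ended without uninduced array 1, and that of TCF7L2 also without uninduced array 2.

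The microRNA miR-34a is a known direct p53 target, and WNT1, WNT3, LRP6, LEF1 and CTNNB1 are published targets of the miR-34 family. Its mature 5p sequence is shown because the targets are defined by its seed, bases 2 to 8, in capitals (RefSeq, GRCh38.p14, chr1:9151735-9151756, minus strand).
hsa-miR-34a-5p: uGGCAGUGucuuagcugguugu
The probe set of the MIR34A gene, which does not measure the mature strand, read 6.28 and 6.44 on induced arrays against 5.18 and 5.05 on uninduced arrays. Its uninduced level lay under the marker median, and MIR34A was not in the fit that left out dim genes. Of the 5 published targets, WNT3, LRP6 and LEF1 were called lower (log2 fold changes -0.48, -0.48 and -0.595), CTNNB1 was called higher (0.525) and WNT1 was not called (0, 95% interval -0.26 to 0.26), where 45.1% of all genes were called and 24.6% called lower. The calls of WNT3, LRP6 and CTNNB1 ended without uninduced array 1. Whether miR-34a had a part in these values was not tested.

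Other genes of the pathway were taken in 7 lists, together 96 measured genes beyond the 52. Of these 96, 26 rose and 18 fell, while 52 missed the threshold, so 45.8% were called against 45.1% of all genes. Over all genes, 20.6% were called higher and 24.6% lower. Among 16 partners of the destruction complex, 8 rose and 3 fell, so 68.75% were called. AMER1, a tumour suppressor that brings APC to the membrane, read 9.59 and 9.77 on induced arrays against 7.68 and 7.66 on uninduced arrays, 4.03-fold higher. TNKS2, the tankyrase that marks AXIN for degradation, rose 2.69-fold, and CSNK1G1, a casein kinase that can phosphorylate LRP6, rose 2.63-fold (adjusted p between 3.3e-06 and 9.9e-06 for these 3). Among 19 nuclear cofactors, 6 rose and 5 fell, so 57.9% were called. The shares of these lists were not matched for level. TBL1XR1, a cofactor exchange factor, read 7.67 and 8.11 on induced arrays against 9.77 and 9.86 on uninduced arrays, 3.80-fold lower, and the corepressor gene TLE1 was 2.11-fold lower. PYGO1, a beta-catenin coactivator, rose 2.17-fold.

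Of 17 planar polarity and non-canonical receptor genes, 6 rose and 1 fell, so 41.2% were called, near the 45.1% of all genes. The atypical cadherin gene CELSR1 read 9.88 and 9.87 on induced arrays against 8.16 and 7.97 on uninduced arrays, 3.51-fold higher, and its relative CELSR2 rose 2.05-fold. VANGL1, a core polarity protein, was 2.11-fold lower. Of 6 secretion and processing genes, TRABD2A, a protease that inactivates WNT ligands, rose 1.65-fold and WLS, the carrier that brings WNT proteins to the surface, was 1.54-fold lower. Of 13 other antagonists, NKD2 and KREMEN2 rose 1.67-fold and 1.38-fold and TPBG was 1.85-fold lower, while 10 did not pass. Of 7 genes of the R-spondin system, which protects frizzled receptors, 0 passed limma's test and 1 had an unadjusted p under 0.05.

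Canonical target genes were called in both directions, more of them lower than higher. Beyond the 52 WNT genes, 22 were measured, of which 3 rose and 7 fell, while 12 missed the threshold, with a median log2 fold change of -0.0050. The 45.5% called is close to the 45.1% of all genes, where 20.6% of all genes were called higher and 24.6% lower. The direction of these target genes as a set was not tested. NRCAM, a neuronal adhesion molecule, read 7.67 and 8.13 on induced arrays against 5.30 and 5.29 on uninduced arrays, 6.08-fold higher from an uninduced level under the marker median. CCND1, the G1 cyclin, read 9.14 and 9.02 on induced arrays against 10.75 and 10.70 on uninduced arrays, 3.13-fold lower. BIRC5, which encodes survivin and acts in mitosis, read 7.68 and 7.39 on induced arrays against 9.55 and 9.43 on uninduced arrays, 3.88-fold lower, and its log2 fold change of -1.955 was -1.03 when its 2 probe sets were averaged. Many of these genes are also controlled by other pathways. Among the 6 target genes that belong to the 52, DKK1 rose, LEF1, TCF7L2 and ZNRF3 fell, and AXIN2 and RNF43 did not pass.

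**Figure D4:**
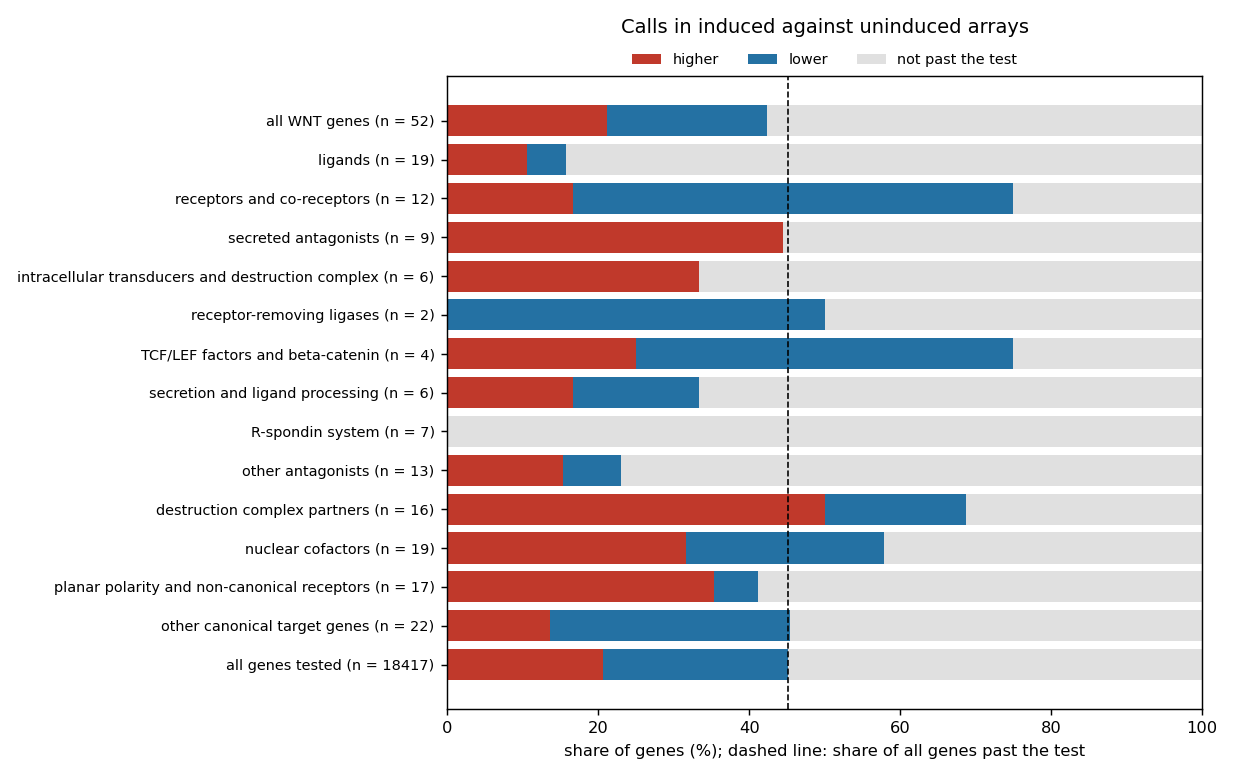
Share of genes (%) called higher, called lower or not past limma's test on induced against uninduced arrays, for the 52 WNT genes, their roles and the other pathway lists, with the number of genes in each. The dashed line marks the 45.1% of all genes that were called. Receptors (9 of 12) lie above it and ligands (3 of 19) below, and the shares were not matched for level.

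The direction of the 22 called WNT genes was the same under all 11 alternatives in which each could be fitted, and 11 of the 22 kept their call in each. These 11 were WNT4, FZD2, FZD3, FZD5, FZD6, SFRP4, DKK1, DKK2, DKK3, DVL3 and LEF1. The count of called WNT genes was 12 without uninduced array 1 and 14 without uninduced array 2, and those called lower then numbered 4 and 5. The share of all genes called dropped likewise, to 27.4% and 26.9%.

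**Figure D5:**
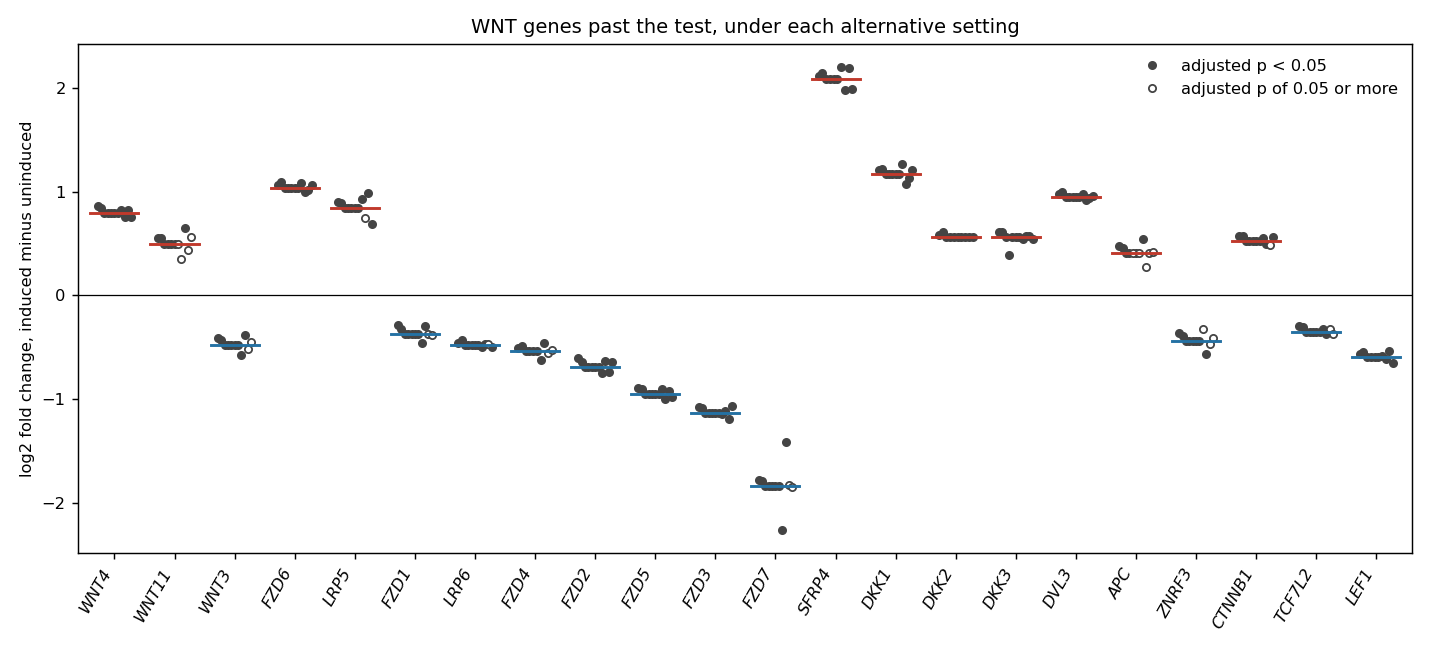
Log2 fold change (induced minus uninduced) of the 22 called WNT genes as reported (coloured line) and under each of up to 11 alternatives (points; open where the adjusted p was 0.05 or more). No point crosses 0, and the open points belong to 11 genes, among them APC and WNT11; FZD7 has the widest range, -2.26 to -1.41.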

How the data were processed

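Biotin-labelled single-stranded cDNA made from total RNA was measured on Affymetrix arrays, per the labels' protocols. The deposited values are log2 levels that the authors made with Affymetrix Expression Console and RMA, per the submitters' processing notes; their versions and settings, and the genome build, are not given in the sources. RMA corrects the background, equalises the arrays' distributions and combines each set's probes into 1 value, so a change shared by all transcripts is removed and changes of dim genes are compressed. No detection calls or scanner files were used here, and no filter on low values was applied.

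The table held 33297 rows, 19460 of them with 1 gene symbol in the platform annotation. The brightest probe set, by its mean over all arrays, stood for its gene, which left 18417 genes. Sample titles gave the groups. limma 3.58.1 in R 4.3.3 (lmFit and eBayes, no covariate, two-sided) compared induced with uninduced arrays, with Benjamini-Hochberg adjustment over all genes, and the fit was checked on simulated data. Genes with an adjusted p under 0.05 are called here. SEs and 95% intervals are limma's. An exact permutation test of 2 against 2 arrays cannot give a p under 0.333, so none was used. The WNT genes, the pathway lists and the rule for naming genes were chosen with earlier results of these data known. The rule gave array values to each WNT gene that was called and to the brightest gene of each role, and named the 3 called genes with the largest change of each other list; array values of WNT1, WNT5A, AXIN2 and VIM, MIR34A, the targets of miR-34 and the promoters shown were chosen after values had been seen. The 11 alternatives tried are given in the closing section. Promoters were searched, and figures drawn, with Python 3.11.15, pandas 2.3.3, numpy 2.4.6 and matplotlib 3.10.9.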

Additional observations from a re-analysis of the deposited data

How the results depend on the processing

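Of 552 values of the 52 WNT genes in the 11 alternative fits, 516 stayed on the same side of the threshold, 25 lost the call and 11 gained one; 0 called values changed direction. Of 324 values of the 30 other named genes, 302 stayed on their side and 22 lost the call, those of TPBG, KREMEN2, VIM, CDH2, CD3E and SFTPC; 0 called values changed direction. Leaving out 1 array at a time, limma called 4959 to 6904 genes against 8311 with all arrays, 12 to 22 of the WNT genes against 22, 4 to 12 of them lower against 11, and 29 to 46 genes of the pathway lists against 48; the lowest counts came without an uninduced array, where 1 sample stood for its group and was assumed to vary like the other. With 2 arrays, a fit without 1 has fewer degrees of freedom. Rescaling moved the median log2 fold change of all genes by 0.035 (quantile normalization again) or 0.050 (each array centred on its median). These, and an intensity trend, gave 24 called WNT genes. Leaving out dim genes, which removed 20 of the 52, gave 20. In that fit 68.0% of all genes kept were called, against 45.1% as reported. WNT9A, FZD8, WNT8A and SFRP1, not called as reported, were called under at least 1 alternative. Averaging a gene's probe sets gave 22 called WNT genes, and fitting all rows of the table gave 21, with the call of APC lost. With the replicate number as a block, 21 WNT genes and 7819 genes in all were called, the calls of APC and WNT11 being lost and that of WNT9A gained. Deviations of same-numbered arrays from their group means correlated at 0.22 across genes, and no label says that a number marks a shared batch, so the numbers were not taken as pairs. No detection call sets a lower limit for the dim genes.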

Other observations

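Several WNT ligand genes lie beside each other in the RefSeq gene order of GRCh38.p14. WNT10B and WNT1, WNT6 and WNT10A, and WNT3 and WNT9B had 0 coding genes between them, and WNT9A and WNT3A had 1. In 3 of these 4 pairs neither gene was called. In the remaining pair WNT3 was called lower (log2 fold change -0.48), while WNT9B had a log2 fold change of 0.030 (95% interval -0.22 to 0.28); the difference between them was not tested. DKK3 was the one WNT gene with a second probe set. That probe set read 5.69 and 5.44 on induced arrays against 5.38 and 5.31 on uninduced arrays, or 0.22 higher on the log2 scale (SE 0.11, adjusted p = 0.227 over all rows of the table), where the brighter one gave 0.56.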
